A study of Mus musculus with 30 samples.

Results

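The genes described here are 9 markers of perivascular fibroblasts and of the meninges: Slc6a13, Serping1, Dcn, Lum, Ogn, Islr, Igf2, Ptgds and Aldh1a2. They were taken by name, and each is read from its brightest probe set, that is, the set of short probes with the highest mean over all arrays. They are 9 of the 18194 genes that have a probe set of their own on the array, and 13 of the 45101 probe sets are paired with 1 of them alone. A gene was tested where that probe set exceeded 4 on the log2 scale in at least 3 of the 30 arrays. This left 11243 genes, and all 9 members passed.

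Perivascular fibroblasts lie on the outer side of arterioles, venules and larger vessels of the brain, in the space that continues into the leptomeninges, while pericytes sit on capillaries within the basement membrane. Both fibroblast-like populations make collagens and small leucine-rich proteoglycans, and the meninges also secrete growth factors, retinoic acid and carrier proteins into the cerebrospinal fluid. Several of the same genes, Igf2 and Ptgds among them, are also used by the choroid plexus, so a vessel preparation can contain these transcripts from more than one source.

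RNA had been taken from brain microvascular fragments, which are short pieces of capillary and small vessel isolated from mouse brain, and measured on Affymetrix arrays, 1 per sample. The ret mutants (pdgfbret/ret, 4 arrays, 7 to 10 months of age, 1 male and 3 females) lack the motif that retains PDGF-B, the endothelial growth factor that recruits pericytes, near the vessel. Their controls (pdgfbret/+, 4 arrays, 8 to 10 months, 3 males and 1 female) carry 1 such allele, and both have the strain label C57/B6/J with no brain region named. The R26P mutants (Tie2Cre, R26P+/0, pdgfb-/-) have no PDGF-B gene of their own and express human PDGF-B from 1 copy of a transgene at the Rosa 26 locus, which Cre driven by the endothelial Tie2 promoter switches on. Their controls (R26P+/0, pdgfb+/+) carry the same copy in its silent state and no Tie2Cre. Both R26P groups are on a mixed C57/SV129 background, with 4 arrays of cerebrum and 4 of cerebellum each, and their age is 2 months in one label and 1 year in another. In each region 2 of the 4 mutants and 1 of the 4 controls of the R26P model are male. Wild-type mice (C57/B6/J, Notch3+/+, 2 months) gave 3 arrays of cerebellum and 3 of cerebrum. Sex and genotype are partly confounded in the ret model, and Tie2Cre and the loss of pdgfb coincide in the R26P model, so their shares in any difference cannot be told apart. In bulk RNA, fewer cells of a type and less RNA per cell cannot be told apart either.

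Values are the log2 signals deposited by the authors. Wild-type arrays were normalized apart from the other 24 and are compared only with each other. No pair of the 30 arrays held identical values. Growth hormone, Gh, a product of the pituitary, exceeded 8 in 9 arrays: ret mutants 1, 2 and 4, cerebrum 2 and 3 of both R26P groups, R26P mutant cerebellum 3 and wild-type cerebrum 3. In R26P mutant cerebellum 3 it read 14.7, against at most 2.85 in the 10 other cerebellum arrays. For this array, pituitary RNA carried over and a wrong region label cannot be told apart. Ret mutant 4 also stood apart in the members themselves, as described below. Fibroblast collagen was measurable in every group: Col3a1 exceeded 4 in all 30 arrays, whereas the probe set of Col1a1 did so in 1. The second probe sets of Dcn and Igf2 did not vary, at 2.16 on all ret and R26P arrays and 2.17 on all wild-type arrays. They carry no information, and the second probe sets of Ogn and Ptgds are given below.

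To show what differs among the members at the DNA level, 300-base promoter windows around the annotated start are printed for 4 of them, as given by RefSeq for GRCm38.p6. Slc6a13 is shown because it fell in all mutant comparisons, and Ogn and Ptgds because they fell in R26P mutant cerebrum. Aldh1a2 is shown because it was lower in cerebellum than in cerebrum in all 11 pairs of arrays with the same replicate number. Capitals mark 3 motifs on either strand: the TATA box as TATAAA, the motif of AP-1 as TGANTCA and that of TEAD factors as GGAATG.
Slc6a13, chr6:121300038-121300337, plus strand: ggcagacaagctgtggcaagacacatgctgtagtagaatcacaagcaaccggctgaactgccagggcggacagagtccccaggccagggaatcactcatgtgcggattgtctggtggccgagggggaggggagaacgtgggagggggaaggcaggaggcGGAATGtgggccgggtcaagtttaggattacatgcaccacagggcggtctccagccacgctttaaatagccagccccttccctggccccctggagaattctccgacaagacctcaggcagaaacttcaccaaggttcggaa
Ogn, chr13:49607765-49608064, plus strand: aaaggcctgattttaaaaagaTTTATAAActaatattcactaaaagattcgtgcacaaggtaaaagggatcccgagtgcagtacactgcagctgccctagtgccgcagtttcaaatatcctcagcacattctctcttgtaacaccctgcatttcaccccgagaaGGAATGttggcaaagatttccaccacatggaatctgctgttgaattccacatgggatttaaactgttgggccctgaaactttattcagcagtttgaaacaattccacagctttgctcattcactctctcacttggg
Ptgds, chr2:25469700-25469999, minus strand: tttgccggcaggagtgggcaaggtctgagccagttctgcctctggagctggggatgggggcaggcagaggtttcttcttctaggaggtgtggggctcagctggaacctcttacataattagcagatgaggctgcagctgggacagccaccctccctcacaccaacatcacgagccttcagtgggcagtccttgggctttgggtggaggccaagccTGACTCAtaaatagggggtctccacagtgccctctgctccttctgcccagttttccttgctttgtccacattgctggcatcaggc
Aldh1a2, chr9:71215539-71215838, plus strand: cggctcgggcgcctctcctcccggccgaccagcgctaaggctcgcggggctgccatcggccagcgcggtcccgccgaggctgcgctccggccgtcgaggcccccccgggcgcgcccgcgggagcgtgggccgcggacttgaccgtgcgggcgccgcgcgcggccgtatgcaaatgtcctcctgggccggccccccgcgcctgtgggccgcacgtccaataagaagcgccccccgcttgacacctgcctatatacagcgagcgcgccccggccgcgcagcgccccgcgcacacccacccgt
The window of Aldh1a2 has a GC content of 78.0% and 50 CpG dinucleotides. Slc6a13 has 59.0% and 11, Ptgds 57.7% and 2, and Ogn 42.3% and 4, against a median of 52.7% and 7 over the 32851 promoters of the table. TATAAA was found in the Ogn window alone of these 4, where TTTATAAA is 1 place read on both strands, and 13.6% of all promoters hold it. In Ogn it lies near the upstream end of the window, far from the annotated start. Only these exact letters were searched for, so looser TATA-like stretches are unmarked. GGAATG stands in the Slc6a13 and Ogn windows and in 14.7% of all promoters. TGANTCA occurs in Ptgds and in 7.81% of all promoters. Slc6a13 has 3 annotated starts, of which the first is shown. Islr and the 4 starts of Igf2 also matched, for 6 of 9 members in all. Such matches describe the letters of the window and are not evidence of binding.

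**Figure D1:**
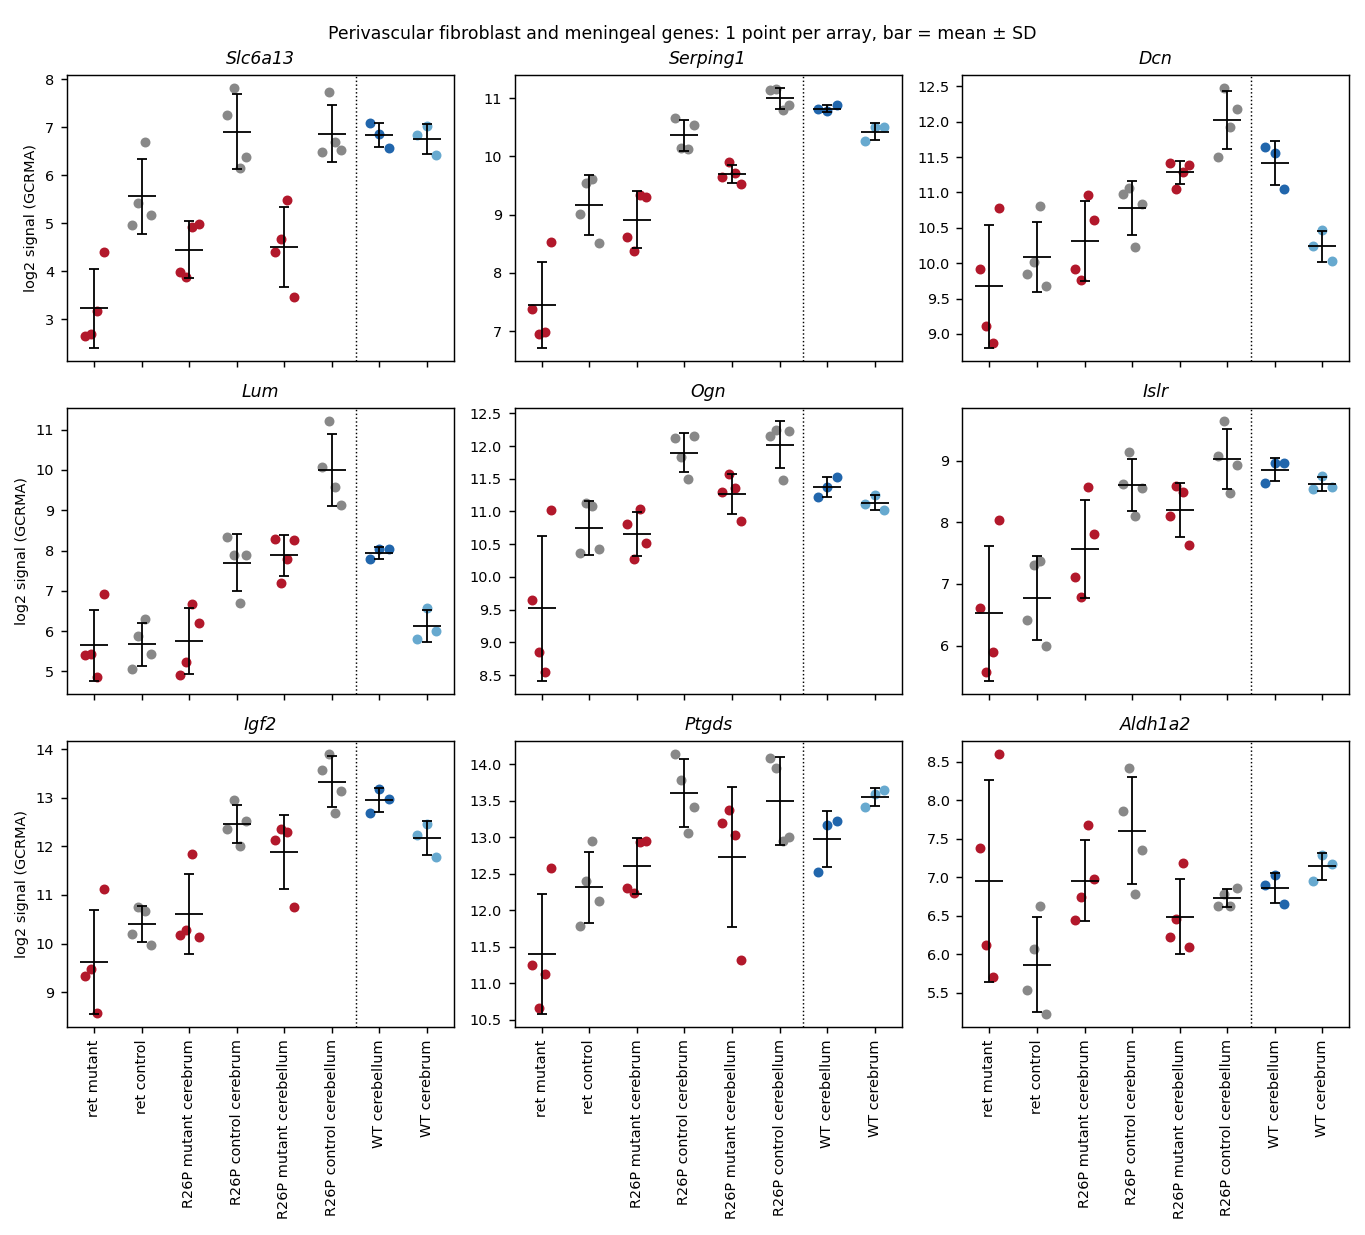
Log2 signal of the 9 genes on all 30 arrays, 1 point per array, with the mean and SD of each group as bars; mutants are red, controls grey and wild type blue, and the dotted line separates the 2 normalization batches. Slc6a13 separates mutants from controls in all 3 comparisons, and Lum and Dcn are higher in cerebellum than in cerebrum in all 3 kinds of mice.

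The first question of the study design is what differs in pericyte-deficient vessels. In R26P mutant cerebrum 6 of the 9 genes were lower than in R26P controls at an adjusted p under 0.05 (limma): Slc6a13, Serping1, Lum, Ogn, Igf2 and Ptgds. In that comparison 18.7% of all tested genes changed, and 10.3% of all tested genes fell. In R26P mutant cerebellum 4 were lower, Slc6a13, Serping1, Dcn and Lum, where 15.6% of all tested genes changed and 8.7% fell. In ret mutants 2 were lower, Slc6a13 and Serping1, where 16.6% changed and 8.63% fell. No member rose in any of the 3 comparisons. Without a test, the arrays of mutants lay wholly below those of controls for 6 members in R26P cerebrum (13% of all tested genes), 5 in R26P cerebellum (11.5%) and 1 in ret (11.8%). Scaled anew by quantiles, 55.3% of the calls in R26P cerebrum and 57.2% in R26P cerebellum were upward, against 44.8% and 44.4% as deposited, while the median of all genes shifted by at most 0.06. The median log2 change of the 9 was -1.24 in R26P cerebrum, -0.83 in R26P cerebellum and -0.78 in ret, beside 0.01, 0.00 and 0.01 over all genes tested.

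**Figure D2:**
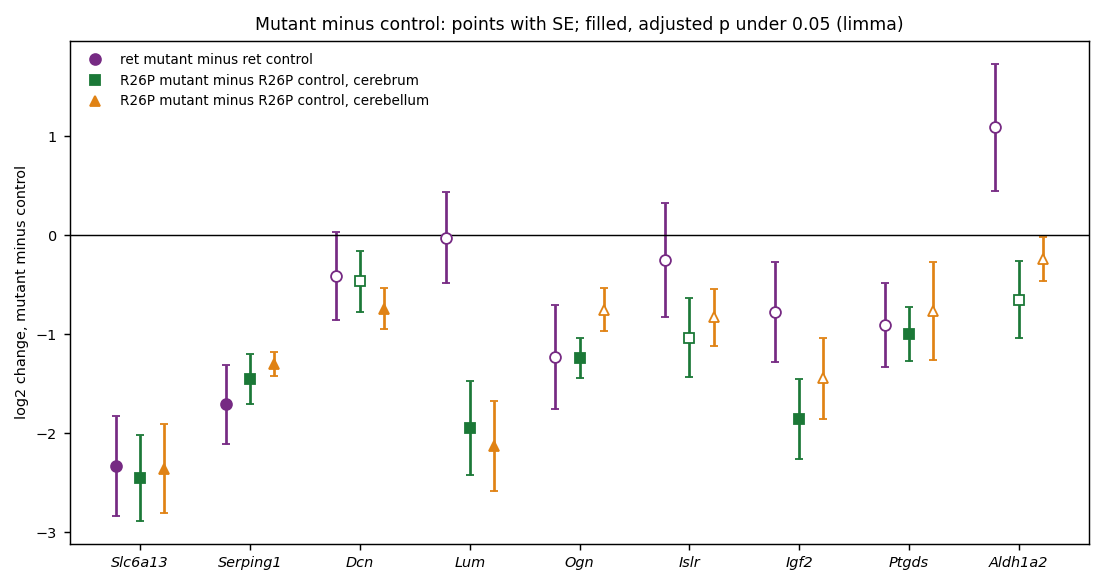
Log2 change of each gene, mutant minus control, with its standard error, for ret (circles), R26P cerebrum (squares) and R26P cerebellum (triangles); filled symbols have an adjusted p under 0.05. Slc6a13 and Serping1 are filled in all 3 comparisons, and Aldh1a2 in ret is the single point above 0.

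Slc6a13 encodes GAT2, a transporter that takes up GABA and taurine. It read 2.65, 2.70, 3.17 and 4.40 in ret mutants 1 to 4, against 4.96, 5.42, 6.70 and 5.17 in ret controls 1 to 4. Cerebrum gave 3.99, 3.89, 4.93 and 4.99 in R26P mutants and 7.26, 7.83, 6.15 and 6.38 in R26P controls. Cerebellum gave 4.40, 4.68, 5.48 and 3.47 in R26P mutants and 6.49, 7.74, 6.70 and 6.53 in R26P controls. In all 3 comparisons every mutant array lay below the lowest control. The log2 changes were -2.33 ± 0.50 (SE) in ret, -2.45 ± 0.43 in R26P cerebrum and -2.36 ± 0.45 in R26P cerebellum, or 5.03-, 5.47- and 5.13-fold lower in mutants, with adjusted p of 0.0190, 0.0078 and 0.0130. Ret mutants 1, 2 and 3 lie below 4, near the lowest deposited value of 2.16, so the signal there had little room to fall further. R26P mutant cerebrum 1 and 2 (3.99 and 3.89) and R26P mutant cerebellum 4 (3.47) also lie below 4. The R26P changes may therefore be understated too.

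Serping1 encodes the C1 inhibitor, which blocks the first proteases of complement and plasma kallikrein. It read 7.37, 6.95, 6.98 and 8.53 in ret mutants, against 9.002, 9.546, 9.605 and 8.505 in ret controls. Ret mutant 4 and ret control 4 overlap and the other arrays do not. In cerebrum the values were 8.62, 8.38, 9.34 and 9.31 in R26P mutants, against 10.65, 10.14, 10.12 and 10.53 in R26P controls. In cerebellum they were 9.65, 9.89, 9.72 and 9.52 in R26P mutants, against 11.14, 11.16, 10.79 and 10.88 in R26P controls. Both regions therefore separate completely, and the arrays of cerebellum are the tightest, with an SD of 0.16 in mutants and 0.19 in controls. The log2 change of Serping1 was -1.71 ± 0.40 in ret mutants (SE, adjusted p = 0.0262), -1.45 ± 0.25 in R26P mutant cerebrum (0.0070) and -1.30 ± 0.12 in R26P mutant cerebellum (5.4e-04). Of the members, its cerebellar change had the smallest error.

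Dcn, Lum and Ogn encode decorin, lumican and osteoglycin, small proteoglycans that bind collagen fibrils. Lum read 4.90, 5.23, 6.67 and 6.21 in R26P mutant cerebrum, against 8.34, 7.88, 6.69 and 7.90 in R26P control cerebrum. The highest mutant and the lowest control there are 6.67 and 6.69. In cerebellum Lum read 8.28, 7.19, 7.78 and 8.26 in R26P mutants, against 10.08, 11.23, 9.58 and 9.14 in R26P controls, with a clear gap. Lum was 3.86-fold lower in R26P mutant cerebrum (log2 change -1.95 ± 0.48, adjusted p = 0.0275) and 4.37-fold lower in R26P mutant cerebellum (-2.13 ± 0.46, adjusted p = 0.0203). In the ret model it read 5.41, 5.42, 4.86 and 6.91 in mutants and 5.06, 5.87, 6.31 and 5.44 in controls, and the groups overlap (-0.02 ± 0.46, adjusted p = 0.98).

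Dcn lies beside Lum on chromosome 10, and the gene after them, Kera, was at the lowest value on all 30 arrays. Dcn read 11.41, 11.05, 11.29 and 11.39 in R26P mutant cerebellum, against 11.51, 12.48, 11.92 and 12.18 in R26P control cerebellum. The groups are separated by the narrow gap of mutant 1 from control 1, and the log2 change was -0.74 ± 0.20 (adjusted p = 0.0466). In cerebrum the change was -0.47 ± 0.30 (adjusted p = 0.32) and in ret -0.41 ± 0.45 (0.56), with overlapping arrays in both.

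Ogn read 10.81, 10.27, 11.03 and 10.52 in R26P mutant cerebrum, against 12.12, 11.83, 11.50 and 12.15 in R26P control cerebrum. The groups do not overlap, and the log2 change was -1.24 ± 0.20 (adjusted p = 0.0058). In ret mutants it read 9.65, 8.86, 8.56 and 11.03, against 10.36, 11.12, 11.09 and 10.43 in ret controls. Mutants 1 to 3 lie below every control and mutant 4 lies among them, for a change of -1.23 ± 0.52 (adjusted p = 0.15). In cerebellum the change of -0.75 ± 0.22 missed the threshold (adjusted p = 0.053). The second probe set of Ogn gave -1.92 ± 0.37 in R26P cerebrum, -1.49 ± 0.40 in R26P cerebellum and -1.18 ± 0.52 in ret (adjusted p of 0.0140, 0.050 and 0.17 over all probe sets tested).

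Ogn is the last of a row of related genes on chromosome 13, Ecm2, Aspn, Omd and Ogn, all of them small leucine-rich proteoglycans or close relatives. Aspn, which encodes asporin, read 6.28, 5.49, 5.49 and 7.16 in ret mutants, against 8.35, 9.17, 8.66 and 8.32 in ret controls, and the groups do not overlap. Its log2 changes were -2.52 ± 0.40 in ret, -2.38 ± 0.24 in R26P cerebrum and -2.23 ± 0.27 in R26P cerebellum. Ecm2 fell as well, with changes of -0.87 ± 0.15 in ret, -1.11 ± 0.15 in R26P cerebrum and -1.47 ± 0.16 in R26P cerebellum. Omd, chosen for its place in the row, was dim and fell in R26P mutant cerebrum (-1.03, adjusted p = 0.0453), whereas its changes of -0.71 in R26P cerebellum and -0.20 in ret did not pass.

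Bgn, which encodes biglycan and stands elsewhere in the genome, rose in all 3 comparisons. It read 14.62, 14.34, 14.58 and 13.66 in ret mutants, against 11.97, 12.36, 12.62 and 12.07 in ret controls, and log2 changes were 2.04 ± 0.24 in ret, 1.40 ± 0.19 in R26P cerebrum and 1.08 ± 0.15 in R26P cerebellum. Prelp, another of the family, fell in R26P mutant cerebrum (-2.46 ± 0.40) and cerebellum (-1.66 ± 0.32). Of the 6 tested genes of this family beside the members, 1 rose and 2 fell in ret mutants, 1 rose and 4 fell in R26P mutant cerebrum, and 1 rose and 3 fell in R26P mutant cerebellum.

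Islr encodes an immunoglobulin and leucine-rich repeat protein of mesenchymal cells. No comparison passed for it: the log2 change was -0.25 ± 0.57 in ret, -1.03 ± 0.40 in R26P cerebrum (adjusted p = 0.11) and -0.83 ± 0.29 in R26P cerebellum (0.095). In cerebrum it read 7.11, 6.78, 8.57 and 7.81 in R26P mutants, against 8.62, 9.14, 8.11 and 8.55 in R26P controls. Mutant 3 lies among the controls, and the other 3 mutants lie below all of them.

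Igf2 encodes insulin-like growth factor 2, a growth factor of the meninges and choroid plexus. It read 10.17, 10.28, 11.83 and 10.13 in R26P mutant cerebrum, against 12.357, 12.952, 11.999 and 12.529 in R26P control cerebrum. Mutants 1, 2 and 4 lie close together and mutant 3 just under the lowest control, for a change of -1.85 ± 0.40 (adjusted p = 0.0175). In cerebellum it read 12.14, 12.35, 12.31 and 10.75 in R26P mutants, against 13.57, 13.91, 12.69 and 13.14 in R26P controls. These groups do not overlap either, and the change of -1.44 ± 0.41 missed the threshold (adjusted p = 0.051). In ret the change was -0.78 ± 0.50 (adjusted p = 0.33).

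Ptgds encodes lipocalin-type prostaglandin D synthase, an enzyme and carrier protein that the leptomeninges secrete. It read 12.30, 12.24, 12.93 and 12.95 in R26P mutant cerebrum, against 14.15, 13.79, 13.06 and 13.42 in R26P control cerebrum. The groups touch but do not overlap, and the change was -0.999 ± 0.271 (adjusted p = 0.0386). In cerebellum R26P mutant 4 read 11.31, against 13.03 to 13.38 in the other 3 mutants, and the change of -0.76 ± 0.50 did not pass (adjusted p = 0.33). In ret it was -0.91 ± 0.43 (adjusted p = 0.19). The second probe set fell in R26P mutant cerebrum too (-1.39 ± 0.37, adjusted p = 0.0448).

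Aldh1a2 encodes RALDH2, the enzyme with which the meninges make retinoic acid. It passed in no comparison. In ret mutants it read 7.38, 6.12, 5.70 and 8.61, against 5.53, 6.06, 6.62 and 5.22 in ret controls, a change of 1.09 ± 0.64 (adjusted p = 0.28). Mutants 1 and 4 are high and mutants 2 and 3 lie among the controls. The change was -0.65 ± 0.39 in R26P cerebrum and -0.24 ± 0.23 in R26P cerebellum.

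These calls rest on few arrays. Without ret mutant 4, Ogn (-1.73), Igf2 (-1.28) and Ptgds (-1.30) joined Slc6a13 and Serping1, so 5 members fell in ret mutants, at adjusted p of 0.015 for Ogn and 0.027 for Igf2 and Ptgds. Over the 8 ret fits with 1 array left out, 1153 to 1931 of the 11243 tested genes changed, against 1870 with all arrays. Without ret control 2 or ret mutant 2 no member passed, with adjusted p of 0.051 and 0.055 for Slc6a13. Serping1 missed the threshold in ret without any one of controls 1, 2 and 3 or mutants 1, 2 and 3 (adjusted p of 0.057 to 0.077). In R26P cerebrum Lum and Ptgds missed it without control 1, 2 or 4 or mutant 1 or 2 (0.064 to 0.096), Igf2 without mutant 2 (0.051), and Islr passed without mutant 3 (-1.37, adjusted p = 0.028). In R26P cerebellum Dcn passed without control 1 and in no other of the 8 such fits (0.075 to 0.109), Lum missed it without control 1 or mutant 2 or 3 (0.051 to 0.057), and Ogn (0.016) and Igf2 (0.047) passed without control 3. Slc6a13 and Serping1 in both R26P regions, and Ogn in R26P cerebrum, kept their calls whichever array was left out.

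The second question is how the genes differ between regions. In wild type, Dcn and Lum were higher in cerebellum than in cerebrum, 2 of 9 members where 2.12% of all tested genes differed and 1.78% were higher. Lum read 7.78, 8.03 and 8.04 in wild-type cerebellum, against 5.81, 6.56 and 6.01 in wild-type cerebrum, a 3.53-fold difference (log2 1.82 ± 0.21, adjusted p = 0.0217). Dcn read 11.64, 11.55 and 11.06 in cerebellum, against 10.24, 10.46 and 10.03 in cerebrum, a 2.26-fold difference (1.18 ± 0.19, adjusted p = 0.0464). Neither gene's groups overlap. Without a test, 4 members (Serping1, Dcn, Lum and Igf2) lay wholly higher in cerebellum, where 9.92% of all tested genes did, and Ptgds wholly lower, as did 11.8%. The call of Dcn was lost whichever of the 6 arrays was left out (adjusted p of 0.067 to 0.190), and that of Lum without cerebrum 1 or 3 or cerebellum 2 or 3 (0.072 to 0.105).

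In the R26P controls the difference of Lum was 2.30 ± 0.50 (adjusted p = 0.090) and that of Dcn 1.25 ± 0.25 (0.069), in a comparison where 1.17% of all genes passed and 0 of the members. Serping1, Dcn and Lum did not overlap between the regions in the controls (5.35% of all genes were so separated and higher) and in the mutants (2.1%). Region arrays with the same replicate number deviated together, and with that number as a block 4 members were higher in control cerebellum: Dcn (adjusted p = 0.0365), Lum (0.0386), Islr (0.43 ± 0.06, 0.0326) and Igf2 (0.87 ± 0.12, 0.0260), where 4.22% of all genes passed. In wild type the block kept the calls of Dcn (adjusted p = 0.0418) and Lum (0.0388), where 1.2% of all genes passed. The wild-type fits with an array left out did not use the block. In the R26P mutants Lum differed by 2.13 ± 0.44 and Dcn by 0.97 ± 0.27. No gene of the 11243 passed in that comparison by limma, 0% of those tested, with or without the block, while 621 had an unadjusted p under 0.05, among them 5 of the 9 members.

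Pair by pair, the order of the regions was the same throughout for 5 members, 4 of them higher in cerebellum, as were 5.04% of all tested genes, and 1 lower, as were 1.66%. In the 11 pairs of arrays with the same number, Lum was higher in cerebellum by 1.11 to 3.38, Dcn by 0.32 to 1.69, Igf2 by 0.45 to 2.07 and Serping1 by 0.21 to 1.51 on the log2 scale. Aldh1a2 was lower in cerebellum in all 11 pairs, with differences of -1.64 to -0.05. The smallest differences of Lum and Dcn both came from R26P mutant 3, the pair that holds the cerebellum array with Gh. The smallest difference of Serping1 came from R26P mutant 4 (0.21) and that of Igf2 from wild-type pair 1 (0.45). Without both arrays of R26P mutant 3 the mutant difference was 2.46 for Lum and 1.19 for Dcn. That pair was left out after its values were seen. Since it held the smallest difference of both genes, both means had to rise. Ogn was higher in cerebellum in 10 of 11 pairs, Islr in 9, Slc6a13 in 7 and Ptgds in 4. Ptgds was lower in cerebellum in all 3 wild-type pairs, in 3 of 4 R26P control pairs and in 1 of 4 R26P mutant pairs. In wild type it read 12.53, 13.17 and 13.22 in cerebellum and 13.41, 13.60 and 13.64 in cerebrum, with no overlap (-0.57 ± 0.20, adjusted p = 0.25). Choroid plexus and ependyma markers moved the same way as Lum and Dcn: their mean signal was 10.96 to 11.65 in wild-type cerebellum and 9.81 to 10.38 in wild-type cerebrum, and 3 of their 9 tested genes passed as higher. Their part in the difference was not tested.

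**Figure D3:**
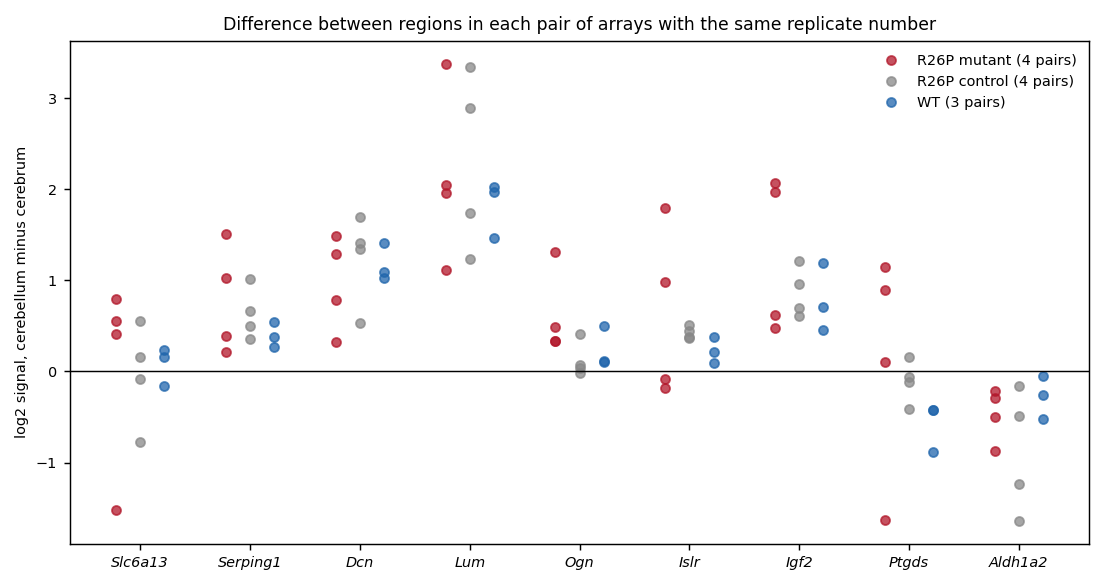
Difference in log2 signal, cerebellum minus cerebrum, in each pair of arrays that share a replicate number, for 4 pairs of R26P mutants (red), 4 of R26P controls (grey) and 3 of wild type (blue). Lum, Dcn, Igf2 and Serping1 lie above 0 in all 11 pairs, and Aldh1a2 lies below 0 in all 11.

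The size of the mutant effect was then set against itself across regions in the R26P mice, and across the 2 models. No member's effect passed as different between regions (0.116% of all genes did), and the estimates ran from -0.27 for Dcn to 0.49 for Ogn. For Slc6a13 the difference was 0.09 with a 95% interval of -1.31 to 1.5, and for Serping1 0.15 with an interval of -0.46 to 0.77. These intervals take the arrays of both regions as independent, although arrays with the same number pair. With that number as a block the SE was 0.51 for Slc6a13, against 0.66 without it, and 0.29 for Serping1. No member passed with the block either, where 0.258% of all genes did. For the ret effect minus that of R26P in cerebrum, where 3.35% of all genes passed, no member did. Of those calls 49.9% were upward as deposited and 34.8% after scaling anew by quantiles. Lum had the largest estimate, 1.93 with an interval of 0.43 to 3.42 (adjusted p = 0.13), followed by Aldh1a2 with 1.74 and an interval of 0.06 to 3.42 (0.21). Age, strain and region label also differ between the models, and these cannot be told apart from the allele.

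Within groups the 9 genes varied together. Ret mutant 4 had the highest value of its group for all 9, on average 1.33 above the group mean. R26P control cerebrum 3 had the lowest for all 9 (-0.59), R26P mutant cerebrum 3 the highest for 7 (0.68) and R26P mutant cerebellum 4 the lowest for 7 (-0.52). After removal of group means, Pearson's r between pairs of members over the 24 ret and R26P arrays ran from 0.53 for Dcn with Ptgds to 0.89 for Serping1 with Islr, with a median of 0.74 over the 36 pairs. Both genes of a pair are read from the same RNA on each array and were normalized together, and the values describe these arrays only. The 24 arrays are not independent, since R26P arrays of the same number deviated together between regions (r of 0.48 to 0.84). Ret mutant 4 enters every r, and no such median was taken over other genes.

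Markers of other cell types moved with the members on some arrays and not on others. The mean signal of 9 choroid plexus and ependyma markers ran from 7.41 to 10.24 in ret mutants, highest in mutant 4, against 8.01 to 9.40 in ret controls. It ran from 8.36 to 10.22 in R26P mutant cerebrum, highest in mutant 3, against 9.75 to 10.99 in R26P control cerebrum, and from 10.11 to 10.96 in R26P mutant cerebellum, lowest in mutant 4, against 10.76 to 12.39 in R26P control cerebellum. In the controls the extremes matched in part. This signal and the members' mean were both highest in R26P control cerebrum 2 and both lowest in R26P control cerebellum 3. In each wild-type region both extremes fell on the same arrays. By contrast, this signal was lowest in R26P control cerebrum 1, while array 3 was lowest for all 9 members. It was highest in R26P control cerebellum 1 and ret control 2, while 7 members were highest in R26P control cerebellum 2 and in ret control 3. Among ret controls it was lowest in array 1, and the members' mean in array 4. Of those 9 genes, 0 changed in ret mutants, 1 fell in R26P mutant cerebrum and 0 changed in R26P mutant cerebellum, with medians of -0.17, -1.54 and -1.25. Of their defining genes Ttr, Kl and Folr1 exceeded 4 on all 30 arrays and Foxj1 on none. All 11 tested pericyte markers fell in each mutant comparison, with medians of -3.30, -3.26 and -2.98, and their mean signal did not overlap between mutants and controls. Of 9 smooth muscle markers 2, 8 and 3 fell, and of 7 astrocyte markers 5, 6 and 5 fell. The pericyte and smooth muscle means, like that of the members, were highest in ret mutant 4 and R26P mutant cerebrum 3. All of these means were lowest in R26P control cerebrum 3 and R26P mutant cerebellum 4. Elsewhere they matched in part. The pericyte mean had both extremes on the members' arrays in both R26P control regions and both wild-type regions. The smooth muscle mean was highest in array 1 of both R26P control regions, and the members' in array 2. Among ret controls the smooth muscle mean was highest in array 2, and the pericyte and members' means in array 3. The pericyte mean was lowest there in array 1, and the smooth muscle and members' means in array 4. In R26P mutant cerebellum the members' mean was highest in array 3 and the other means in array 2. Of 10 microglia and perivascular macrophage markers 1 rose in ret mutants, 3 fell in R26P mutant cerebrum and 2 fell in R26P mutant cerebellum, with medians of 0.37, -0.75 and -0.83. Pituitary markers averaged 3.70 to 12.70 in ret mutants, against 3.49 to 3.80 in ret controls. The part of these cells in the members' values was not tested. Without the arrays with Gh above 8 the change of Slc6a13 was -2.39 in ret, where 1 mutant array was left (adjusted p = 0.14), -2.33 in R26P cerebrum (0.14) and -2.68 in R26P cerebellum (0.011).

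**Figure D4:**
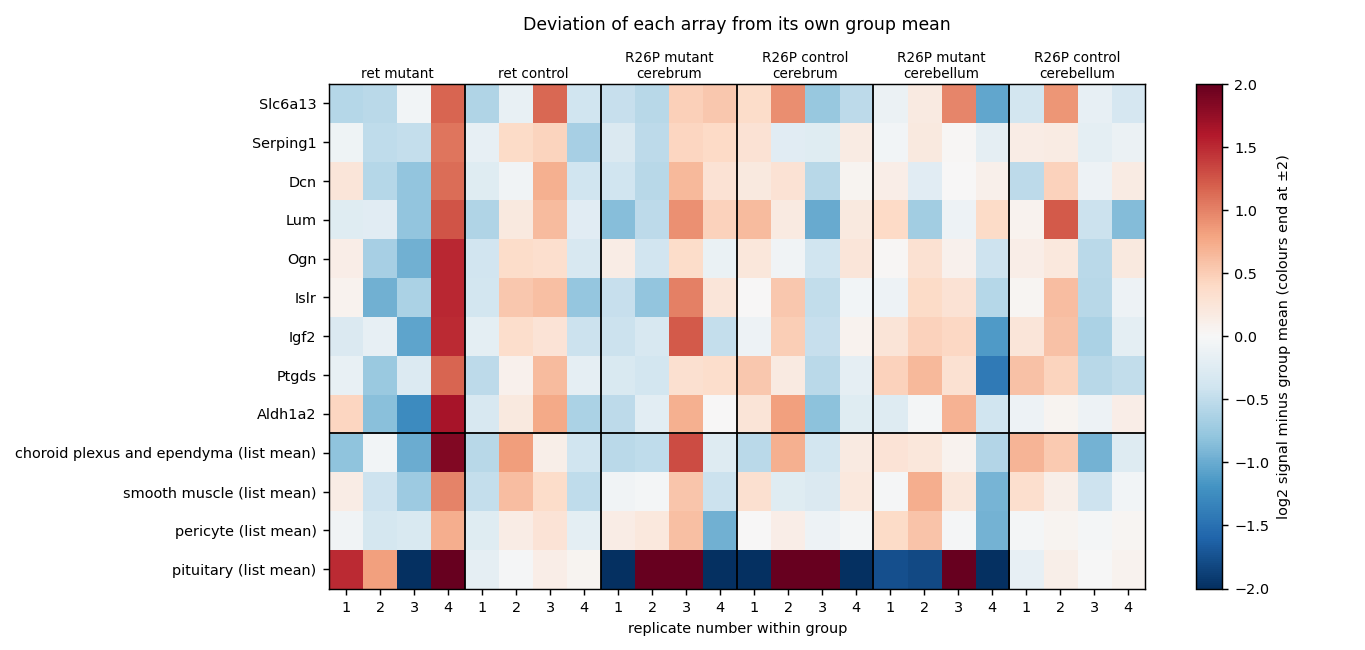
Deviation of each array from the mean of its own group on the log2 scale, for the 9 genes and for the mean of 4 marker lists, over the 24 ret and R26P arrays; red is above and blue below the group mean, and colours end at ±2. Ret mutant 4 is red in all 9 genes and in all 4 lists, and R26P control cerebrum 3 is blue in all 9 genes.

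Other genes of perivascular fibroblasts and meninges did not move as 1 block. Of 52 tested in a list of 71, 6 rose and 9 fell in ret mutants (median -0.18), 7 rose and 16 fell in R26P mutant cerebrum (-0.52), and 3 rose and 19 fell in R26P mutant cerebellum (-0.42). Vtn and Zic1 stand on the pericyte list as well, and without them 7, 14 and 17 fell. Only these shared names were left out, and whether pericytes express others of the list was not tested. Slc6a20a, a transporter of proline and related imino acids, fell in all 3, with changes of -4.05 ± 0.52 in ret mutants, -3.25 ± 0.27 in R26P mutant cerebrum and -3.01 ± 0.30 in R26P mutant cerebellum. Foxd1, a forkhead transcription factor, also fell in all 3 (-1.84 ± 0.09, -2.39 ± 0.15 and -2.31 ± 0.32 in the same order). Fmo2, a flavin-containing monooxygenase, rose in all 3 (1.33 ± 0.16, 1.06 ± 0.24 and 1.01 ± 0.22). Cdh11, a mesenchymal cadherin, rose in ret mutants (2.54 ± 0.55) and fell in R26P mutant cerebellum (-1.73 ± 0.22), and its ret effect exceeded its R26P effect in cerebrum by 3.09 ± 0.61 (adjusted p = 0.0202). In wild type Dpt, which encodes dermatopontin, a partner of decorin in collagen matrix, was the single gene of this list to pass, higher in cerebellum by 2.28 ± 0.22.

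Genes around Slc6a13 and Igf2 were read next. Of 6 tested transporters of GABA, taurine and related solutes, 4 fell in ret mutants and 3 in each R26P region. Slc6a9, a glycine transporter, fell in ret mutants (-0.88 ± 0.12), R26P mutant cerebrum (-1.21 ± 0.13) and R26P mutant cerebellum (-1.32 ± 0.21). Slc6a8, a creatine transporter, fell in the same 3 (-0.62, -0.78 and -0.83). Slc6a20a is the third gene of this list to fall in all 3 comparisons. In the IGF system Igfbp3, a binding protein that limits IGF action, rose by 2.08 ± 0.24 in ret mutants and by 2.29 ± 0.37 in R26P mutant cerebrum, while the receptor Igf1r fell in both (-0.56 ± 0.11 and -1.06 ± 0.21). Of the 11 tested genes of that system, 1 rose and 2 fell in ret mutants, 1 rose and 3 fell in R26P mutant cerebrum, and 0 passed in R26P mutant cerebellum. In wild type Igf1 (0.79 ± 0.11) and Igfbp2 (1.62 ± 0.22) were higher in cerebellum.

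Around Ptgds, Ptgis, which makes prostacyclin, rose by 1.89 ± 0.21 in ret mutants, by 1.504 ± 0.152 in R26P mutant cerebrum and by 1.95 ± 0.15 in R26P mutant cerebellum. The prostaglandin E receptor Ptger3 fell in the same comparisons (-1.56 ± 0.29, -2.11 ± 0.36 and -1.39 ± 0.30). The prostaglandin uptake transporter Slco2a1 rose and the degrading enzyme Hpgd fell in both R26P regions. Of 12 tested genes of this pathway, 1 rose and 1 fell in ret mutants, and 2 rose and 2 fell in each R26P region. Around Aldh1a2, 0 of 13 tested genes rose and 3 fell in ret mutants, 1 rose and 3 fell in R26P mutant cerebrum, and 1 fell in R26P mutant cerebellum. The related enzyme Aldh1a3 fell in ret mutants (-2.04 ± 0.31), and Aldh1a1 rose by 1.24 ± 0.26 in R26P mutant cerebrum. The retinoid receptor Rxra fell in all 3 mutant comparisons (-0.40 ± 0.09 in ret, -0.40 ± 0.09 in R26P cerebrum and -0.45 ± 0.10 in R26P cerebellum). In wild type Aldh1a1 (0.82 ± 0.12) and Cyp26b1 (1.503 ± 0.206), which breaks down retinoic acid, were higher in cerebellum, where Aldh1a2 read 6.90, 7.03 and 6.65, against 6.95, 7.30 and 7.18 in cerebrum.

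Around Serping1, the complement protease C1s1, one of its targets, fell in R26P mutant cerebrum (-1.30 ± 0.29) and R26P mutant cerebellum (-1.17 ± 0.24). Cfi, which encodes complement factor I, rose by 1.66 ± 0.37 in ret mutants, 0.97 ± 0.15 in R26P mutant cerebrum and 1.37 ± 0.16 in R26P mutant cerebellum. In ret mutants C1ra (0.86 ± 0.22) and Serpinf1 (1.43 ± 0.30) rose as well. Of 13 tested genes of this list, 3 rose and 0 fell in ret mutants, and 1 rose and 1 fell in each R26P region.

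The genes whose deviations from the group mean most resembled each member's were found over the same 24 arrays. Lgals1 (r = 0.96) was nearest to Serping1 and also to Islr (0.89). Vasn (0.95), Acta2 (0.94) and Tbx18 (0.93) were nearest to Ogn. Prelp (0.95) was nearest to Igf2, Slc6a20a (0.89) to Ptgds and F3 (0.88) to Lum. Cacna2d1 (0.87) was nearest to Aldh1a2, Efemp1 (0.83) to Dcn and Eif4e3 (0.79) to Slc6a13, which had the weakest best match of the 9. Ret mutant 4 enters all of these values.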

How the data were processed

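Brain microvascular RNA had been measured on 30 arrays. The deposited values are log2 signals that the authors made with GCRMA 2.6.0 under R 2.4.1, per the submitters' processing notes, and they were used as deposited. Background correction by probe sequence sets dim probe sets to a common lowest value, 2.16 on the 24 ret and R26P arrays (35.8% to 37.0% of values) and 2.17 on the 6 wild-type arrays (32.3% to 32.7%), which marks 2 normalization batches. Arrays give no read depth, and their number limits the precision.

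Of the probe sets, 34958 are paired with 1 gene, 932 with several and 9211 with none. Each gene was read from the probe set with the highest mean. Groups came from the labels. Comparisons used limma 3.58.1 in R 4.3.3 (lmFit, eBayes) on the arrays of the compared groups, two-sided, with Benjamini-Hochberg adjustment over 11243 genes and a threshold of 0.05. Changes are given with their standard error. The procedure was tested on simulated data.

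Replicate numbers were not a block in the main tests. Between regions they pair arrays (same-number r of 0.34 to 0.84, and each array correlated best with its own number), so blocked values are given where they change a call. Between mutants and controls they do not (-0.20 to 0.34).

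The members and the 15 lists were chosen with earlier results of these data known. Named genes are the members, up to 4 passing genes with the smallest adjusted p of each list and comparison (the 2 brightest where none passed), and the 3 genes most like each member. The text gives a selection. Omd, Kera, Gh, Col1a1, Col3a1, Ttr, Kl, Folr1, Foxj1 and the values of named genes in comparisons where the rule did not pick them were chosen after values were seen. Alternatives were other filters, probe sets averaged per gene, an intensity trend, 2 other scalings, the block, all 24 arrays in 1 fit, and arrays left out. Leaving out both regions of R26P mutant 3 was chosen after seeing the data.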

Additional observations from a re-analysis of the deposited data

Results flagged for a closer look

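Among 54 tests of a group of 4 arrays with Dixon's criterion, 5 found an array far from the other 3, and chance gives about 1 in 20. In R26P control cerebellum, array 2 read 7.74 for Slc6a13, above the other arrays, and array 3 read 11.48 for Ogn, below them. In R26P mutant cerebrum, array 3 read 11.83 for Igf2, above the others. In R26P mutant cerebellum, array 4 read 10.75 for Igf2 and 11.31 for Ptgds, below the others in both.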

How the results depend on the processing

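Over all alternatives the 14 called member results kept their sign in each of 229 values, of which 71 missed the threshold. The filters, the intensity trend, the block and the fit of all 24 arrays leave the log2 change as it is. In those settings the sign could not turn, so the kept sign says nothing there. The counts of changed genes and of members vary more. With no expression filter 1229, 1390 and 1081 genes changed in ret, R26P cerebrum and R26P cerebellum (main counts 1870, 2097 and 1758) with 0, 3 and 2 members, 58 between wild-type regions (main 238) with 0 members, 47 between R26P control regions (main 132), 1 between R26P mutant regions (main 0), 6 for the R26P effect between regions (main 13) and 177 for ret against R26P (main 377). With a mean above 6, 1 member changed in ret, and 151 genes changed between wild-type regions and 0 for the R26P effect between regions. Averaging probe sets left 1 member between wild-type regions, since the second set of Dcn sits at the lowest value. The intensity trend and the fit of all 24 arrays each called 1 member between R26P control regions, and that fit called 6 genes between R26P mutant regions and 596 for ret against R26P. With the replicate number as a block, 987 genes and 0 members changed in ret, 1278 and 2 in R26P cerebrum, and 2 members in R26P cerebellum, where the numbers do not pair the arrays. The block gave 135 genes between wild-type regions, 475 and 4 members between R26P control regions, 29 for the R26P effect between regions and 68 for ret against R26P.

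Without the arrays with Gh above 8, which leaves 1 ret mutant that is assumed to vary like the others, 919 genes and 1 member changed in ret, 237 and 1 in R26P cerebrum, 1117 and 2 in R26P cerebellum, 89 and 0 between wild-type regions, 24 between R26P control regions, 1 between R26P mutant regions, 7 for the R26P effect between regions and 130 for ret against R26P. Signs turned there for uncalled values: Aldh1a2 in ret (-0.16), Slc6a13 between the regions of wild type (-0.093), R26P controls (0.047) and R26P mutants (-0.31), Ogn between R26P control regions (-0.11), Slc6a13 (-0.35) and Lum (0.47) for the R26P effect between regions, and Slc6a13 (-0.058), Dcn (-0.57), Ogn (-0.73) and Ptgds (-0.027) for ret against R26P. Without both regions of R26P mutant 3, 15 genes changed between mutant regions and 6 for the R26P effect, with Slc6a13 at -0.11 and -0.071 and Lum at 0.16 for that effect. For ret against R26P, Slc6a13 was -0.10 after quantile scaling and Ogn -0.031 after centring. The causes were not tested.

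With each array left out in turn, changed genes ran from 1153 to 1931 in ret, 1387 to 1945 in R26P cerebrum, 1117 to 1572 in R26P cerebellum, 12 to 159 between wild-type regions, 48 to 193 between R26P control regions, 0 to 42 between R26P mutant regions, 6 to 14 for the R26P effect between regions and 127 to 611 for ret against R26P. Members ran from 0 to 5, 3 to 7, 2 to 5 and 0 to 1 in the first 4. Signs of uncalled values turned for Lum (-0.44 to 0.24) and Islr (-0.75 to 0.070) in ret, Slc6a13 in wild type (-0.093 to 0.21), Slc6a13 (-0.33 to 0.27), Ogn (-0.0081 to 0.31) and Ptgds (-0.30 to 0.075) between R26P control regions, Slc6a13 (-0.27 to 0.40) and Ptgds (-0.091 to 0.60) between R26P mutant regions, Slc6a13 (-0.23 to 0.44), Serping1 (-0.025 to 0.29), Lum (-0.47 to 0.23) and Islr (-0.056 to 0.54) for the R26P effect between regions, and Slc6a13 (-0.27 to 0.50), Dcn (-0.32 to 0.32), Ogn (-0.49 to 0.33) and Ptgds (-0.30 to 0.34) for ret against R26P.

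Groups of 3 or 4 arrays limit the precision, and signals near the lowest value understate changes.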
